A study of Mus musculus with 8 samples.

Results

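The 10 genes described here encode transcription factors of the Langerhans cell and dendritic cell lineage: Runx3, Runx1, Id2, Id3, Spi1, Zbtb46, Batf3, Cebpa, Cebpb and Ikzf1. They were taken by symbol, from a list of known lineage factors, out of 25247 genes in a bulk RNA-seq count table, and all 10 were found. The table covers Langerhans cells sorted from ear epidermis of C57BL/6 mice, EZH2 -/- (KO) and wild type (WT), with 4 libraries labelled for each genotype. Ezh2 is the histone H3K27 methyltransferase of Polycomb repressive complex 2. The labels give no age, no sex, no promoter or Cre line behind the deletion and no deleted exon, and they do not say whether a library came from 1 animal or from several.

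The genotype of 4 of the 8 libraries was given in conflicting ways. RMN038 and RMN039 were KO, and RMN030 and RMN031 were WT, both by the library code in the sample title and by the code in the sample description. RMN032 and RMN033 were KO by title and WT by description, whereas RMN036 and RMN037 were WT by title and KO by description. Each comparison was therefore made for the 4 undisputed libraries, for the title codes and for the description codes. The codes fall into an earlier code run (030 to 033) and a later code run (036 to 039). In the undisputed libraries and by description, genotype coincides with the code run, so that these cannot be told apart. By title, each code run holds 2 KO and 2 WT libraries.

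Library totals ranged from 11051402 to 18966195 counts. Ezh2 was at 10.5 to 15.2 CPM (counts of a gene scaled to a common library total) in the 4 libraries titled KO and at 15.7 to 22.4 CPM in the 4 titled WT, without overlap, as for 2.94% of all tested genes. By description it was at 10.5 to 19.0 CPM in KO and at 14.9 to 22.4 CPM in WT, with overlap. Its log2 fold change was -0.66 (SE 0.31) in the undisputed libraries, -0.49 (SE 0.18) by title and -0.15 (SE 0.22) by description, with edgeR adjusted p values of 0.455, 0.998 and 0.869. The labelled cell type was checked against its markers. Cd207, encoding langerin, was at 9706 to 11962 CPM and Epcam at 558 to 672 CPM in all libraries. All 10 genes of the Langerhans cell list were detected, and their sum was 83957 and 87209 CPM in the undisputed KO libraries and 87196 and 99894 CPM in the undisputed WT libraries. The keratinocyte list, led by Krt14, reached 11711 to 15069 CPM over the 8 libraries. Krt15 was at 1337 to 1656 CPM in the earlier and 1060 to 1120 CPM in the later codes. Trp63 was at 271 to 442 and 165 to 249 CPM, and Krt1 at 33.6 to 59.5 and 81.6 to 101 CPM. Krt5, Krt10 and Krt14 overlapped between the code runs. The part of keratinocyte RNA in the levels of other genes was not tested. RMN030 and RMN031 stood apart: their 16 T cell and thymocyte genes summed to 377.5 and 380.0 CPM, with all 16 detected, against 38.6 to 52.3 CPM in the other 6 libraries, where Cd8b1 and Dntt were at 0. Most of the sum in those 6 libraries was Cd4, at 33.5 to 47.0 CPM, against 75.4 and 70.1 CPM in RMN030 and RMN031. The code runs differed in the mitochondrial share of counts, at 3.76 to 4.03% in the later and 1.02 to 1.87% in the earlier codes, and in a fibroblast list, at 110 to 176 CPM and 35.6 to 49.1 CPM. A list of haemoglobin and related blood genes summed to 1272 and 1355 CPM in the undisputed KO libraries and to 122 and 151 CPM in the undisputed WT libraries.

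Langerhans cells are epidermal dendritic cells that are seeded before or around birth and maintain themselves in the skin. In mice, Runx3 and the inhibitor of DNA binding Id2 are needed for their development or maintenance downstream of TGF-beta, and PU.1, the product of Spi1, acts upstream of Runx3 in this lineage. The RUNX proteins bind DNA with the partner CBF-beta. ID proteins lack a DNA-binding region and hold E proteins away from their sites. Zbtb46 marks the conventional dendritic cell lineage, Batf3 is required for cross-presenting conventional dendritic cells, C/EBP-alpha and C/EBP-beta drive myeloid differentiation, and Ikaros, the product of Ikzf1, is a zinc finger factor of lymphoid and dendritic development.

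Runx3 and Runx1 were the 2 members whose KO libraries by title lay below the WT libraries within each code run, as did 3.58% of all tested genes. Each gene is known to be transcribed from a distal and a proximal promoter, and these windows are shown for that reason. The windows are the 250 bases before each RefSeq transcript start in GRCm38.p6, written 5′ to 3′ on the strand of the gene, with capitals marking the RUNX core TGTGGT or its reverse complement. The Runx3 windows lie at chr4:135120395-135120644 (distal, plus strand) and chr4:135152295-135152544 (proximal, plus strand). The Runx1 windows lie at chr16:92826075-92826324 (distal, minus strand) and chr16:92697330-92697579 (proximal, minus strand).
Runx3 distal: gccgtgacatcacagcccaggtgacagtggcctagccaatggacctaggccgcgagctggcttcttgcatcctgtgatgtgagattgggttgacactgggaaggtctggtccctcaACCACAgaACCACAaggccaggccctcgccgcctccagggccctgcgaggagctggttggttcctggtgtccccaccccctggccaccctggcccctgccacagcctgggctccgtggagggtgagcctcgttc
Runx3 proximal: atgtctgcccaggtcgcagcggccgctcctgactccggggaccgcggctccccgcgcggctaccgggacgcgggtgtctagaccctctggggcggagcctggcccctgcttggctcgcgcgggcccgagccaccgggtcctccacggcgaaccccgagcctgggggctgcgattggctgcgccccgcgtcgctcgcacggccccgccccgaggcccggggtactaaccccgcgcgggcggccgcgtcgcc
Runx1 distal: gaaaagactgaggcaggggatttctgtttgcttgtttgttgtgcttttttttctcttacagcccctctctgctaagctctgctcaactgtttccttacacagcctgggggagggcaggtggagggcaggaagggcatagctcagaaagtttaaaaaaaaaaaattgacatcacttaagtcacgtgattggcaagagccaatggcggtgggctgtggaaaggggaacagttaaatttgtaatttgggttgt
Runx1 proximal: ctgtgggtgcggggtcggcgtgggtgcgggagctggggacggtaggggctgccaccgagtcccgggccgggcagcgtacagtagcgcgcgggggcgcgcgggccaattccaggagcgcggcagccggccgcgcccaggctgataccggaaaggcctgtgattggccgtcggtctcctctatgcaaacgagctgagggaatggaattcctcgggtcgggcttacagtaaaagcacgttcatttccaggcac

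The distal Runx3 window held 2 RUNX cores, with their first bases 134 and 126 bases before the start. None of the other 11 windows of the members, the proximal Runx3 window and both Runx1 windows included, held this core on either strand. Of all 32817 RefSeq windows of this length, 14.0% held it. The E-box letters CAGNTG, bound by E proteins, were present in the distal Runx3 window, at 2 places in the distal Runx1 window, in the Id2 window and at 2 places in the Zbtb46 window, against 44.8% of all windows. The Ikaros core TGGGAA was present in the distal Runx3 window alone among the member windows, against 21.6% of all windows. The AP-1 letters TGANTCA were present in the Zbtb46 window alone, against 6.75% of all windows. The only window matched for Zbtb46 lies at chr2:181424389-181424638 (minus strand). It is inside the annotated gene, which runs from 181387762 to 181459426, so the annotated 5′ end of Zbtb46 was not searched. No member window held the PU.1 letters GAGGAAGT (2.44% of all windows) or the C/EBP letters TTGCNNAA (9.57%). The 12 windows belong to 9 members. No window was matched for Spi1, so its promoter was not searched for any of these letters. The median GC content of the 12 windows was 65.8%, against 52.4% over all windows. They held a median of 20 CpG dinucleotides, against 6 over all windows. These matches are a description of letters and no measure of binding.

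Levels of different genes were compared as CPM per kilobase of union exon length, averaged over the 8 libraries. Spi1 was the most abundant member at 147.9 ± 18.8 CPM per kilobase (SD, n = 8), above 98.7% of the genes with a length. Id3 followed at 76.4 ± 8.28 CPM per kilobase, then Runx3 at 52.1 ± 8.17 and Id2 at 51.0 ± 10.3. A lower tier comprised Ikzf1 at 6.76 ± 1.74, Zbtb46 at 5.21 ± 0.571 and Runx1 at 4.37 ± 0.607 CPM per kilobase. Cebpa averaged 2.29 ± 0.860, Batf3 0.483 ± 0.306 and Cebpb 0.196 ± 0.156 CPM per kilobase. Spi1 lay above Id3 in all 8 libraries and Id2 lay above Ikzf1 in all 8, in each case with ranges that did not overlap. Runx3 and Id2 did not differ beyond their spread: Runx3 was the higher of the pair in 6 libraries, and Id2 in RMN038 and RMN039. Ikzf1 exceeded Zbtb46 in 5 of the 8 libraries, Zbtb46 exceeded Runx1 in 7, and Batf3 exceeded Cebpb in 5, all with overlapping ranges. Runx1 exceeded Cebpa in all 8 libraries although their ranges across libraries overlapped. The order within the middle tier depends on the length used: per kilobase of the longest annotated transcript Runx1 averaged 8.96 CPM, Zbtb46 8.36 and Ikzf1 7.56, with Runx1 above Zbtb46 in 5 libraries and above Ikzf1 in 6.

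**Figure D1:**
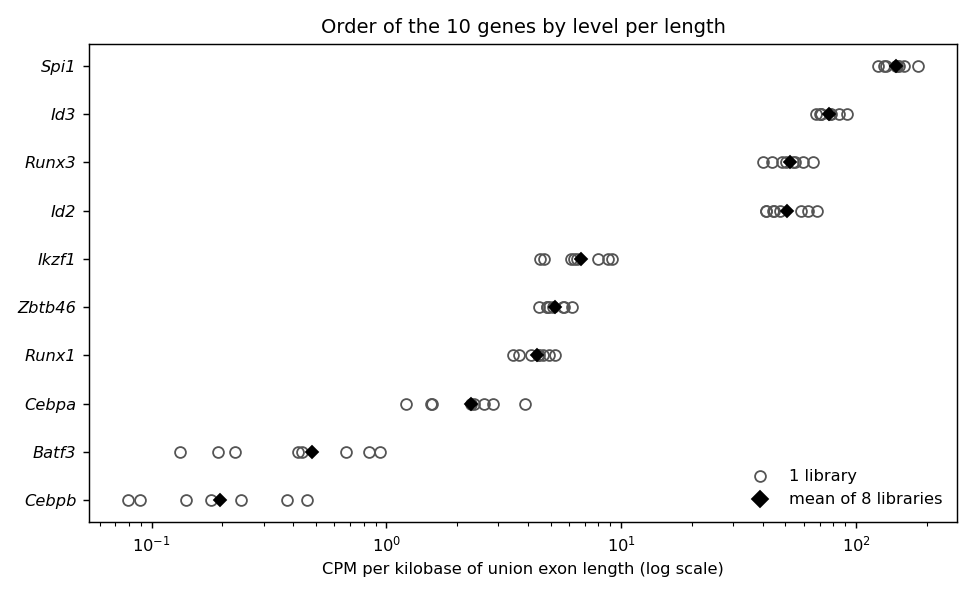
Level of the 10 genes in CPM per kilobase of union exon length on a log axis, with an open circle for each library and a filled diamond for the mean of 8 libraries. Spi1, Id3, Runx3 and Id2 form an upper tier at means of 51.0 to 147.9, and Batf3 and Cebpb lie below 1; the library in which Cebpb had no count is not drawn.

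Runx3 (ENSMUSG00000070691, GRCm38 chromosome 4, 135120652 to 135177990, plus strand) encodes the RUNX family member that Langerhans cells require in mice. Its level was 202 CPM in RMN038 and 219 CPM in RMN039, the undisputed KO libraries, against 328 CPM in RMN030 and 298 CPM in RMN031, the undisputed WT libraries. It was 243 CPM in RMN032 and 274 CPM in RMN033, titled KO, and 269.6 CPM in RMN036 and 252 CPM in RMN037, titled WT. The undisputed KO libraries were thus the 2 lowest of the 8, the undisputed WT libraries the 2 highest, and the 4 disputed libraries lay between them. By title, Runx3 averaged 234.6 ± 31.5 CPM in KO and 287 ± 33.2 CPM in WT (SD, n = 4 each), and by description 236 ± 30.7 CPM in KO and 286 ± 35.7 CPM in WT.

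The log2 fold change of Runx3, KO minus WT, was -0.53 (SE 0.14) in the undisputed libraries, with an unadjusted p of 0.00323 and an adjusted p of 0.151 by edgeR's quasi-likelihood test, so that it did not pass the threshold of 0.05. With DESeq2 the log2 fold change was -0.52 and its adjusted p 0.0278, and edgeR with no filter on low counts gave an adjusted p of 0.0357. Without RMN031 the edgeR value was -0.62 with an adjusted p of 0.00133, and without the other libraries in turn the adjusted p ran from 0.066 to 0.494. By title the log2 fold change was -0.30 (SE 0.11, edgeR adjusted p 0.998), and with the code run as a term it was -0.30 (SE 0.086, edgeR adjusted p 0.602). By description it was -0.24 (SE 0.12, edgeR adjusted p 0.428). Within the earlier code run the KO libraries by title gave -0.31 (SE 0.14) and within the later code run -0.28 (SE 0.09). The term for the code run in the title fit, later minus earlier, was -0.24 (SE 0.086, edgeR adjusted p 0.216), so that Runx3 was lower both in libraries titled KO and in the later codes, neither past the threshold.

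The T cell and thymocyte list was at 38.6 and 45.9 CPM in the undisputed KO libraries and at 377.5 and 380.0 CPM in the undisputed WT libraries, which were also those with the most Runx3. Runx3 is itself transcribed in CD8 T cells, and the part of these markers in the difference was not tested. Without RMN030 and RMN031, the log2 fold change of Runx3 was -0.16 by title (SE 0.11, edgeR adjusted p 0.893) and -0.08 by description (SE 0.12, edgeR adjusted p 0.940). The earlier codes then hold no library titled WT, so that a fit with the code run would rest on the later codes alone, whose value is given above. In bulk libraries, fewer cells of a type and less RNA per cell cannot be told apart.

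Runx1 (ENSMUSG00000022952, chromosome 16, 92601466 to 92826149, minus strand) encodes the RUNX factor of haematopoietic stem cell emergence. It was at 53.8 CPM in RMN038 and 44.0 CPM in RMN039 (KO), 41.4 CPM in RMN032 and 49.9 CPM in RMN033 (titled KO), 63.0 CPM in RMN036 and 55.9 CPM in RMN037 (titled WT), and 52.9 CPM in RMN030 and 59.3 CPM in RMN031 (WT). In 3 of the 4 libraries titled KO the level was below that of every library titled WT, and RMN038 was above RMN030 alone among those titled WT. By title Runx1 averaged 47.3 ± 5.63 CPM in KO and 57.8 ± 4.34 CPM in WT (SD, n = 4 each), with a log2 fold change at -0.29 (SE 0.13, unadjusted p 0.0406, edgeR adjusted p 0.998). With the code run as a term it was -0.29 (SE 0.12, edgeR adjusted p 0.787). In the undisputed libraries the log2 fold change was -0.15 (SE 0.20, edgeR adjusted p 0.860), and by description it was 0.13 (SE 0.14, edgeR adjusted p 0.794), with the opposite sign.

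Runx3 and Runx1 were the 2 members of 9 tested whose libraries titled KO all lay below those titled WT within each code run, an arrangement found for 3.58% of all tested genes. The libraries titled WT in the earlier codes are RMN030 and RMN031, whose T cell and thymocyte list summed to 377.5 and 380.0 CPM. The part of that list in the levels of Runx3 and Runx1 was not tested. No member lay above in both code runs, against 3.32% of all tested genes. Per length, Runx3 exceeded Runx1 in every library. The ratio of Runx3 to Runx1 was 9.01 in RMN038 and 12.0 in RMN039 (KO), 14.1 in RMN032 and 13.2 in RMN033 (titled KO), 10.3 in RMN036 and 10.8 in RMN037 (titled WT), and 14.9 in RMN030 and 12.1 in RMN031 (WT). The ratio was higher in every library of the earlier codes (WT by description) than in every library of the later codes (KO by description). The gap was narrow, at 12.07 in RMN031 against 11.98 in RMN039. How often ratios of other gene pairs split in this way was not computed. For the CPM of single genes, KO and WT by description did not overlap for 8.82% of all tested genes. The CPM of Runx3 and of Runx1 each overlapped by description. Between KO and WT by title the ratio overlapped. Per length of the longest transcript the ratios were lower, at 5.66 to 9.34.

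**Figure D2:**
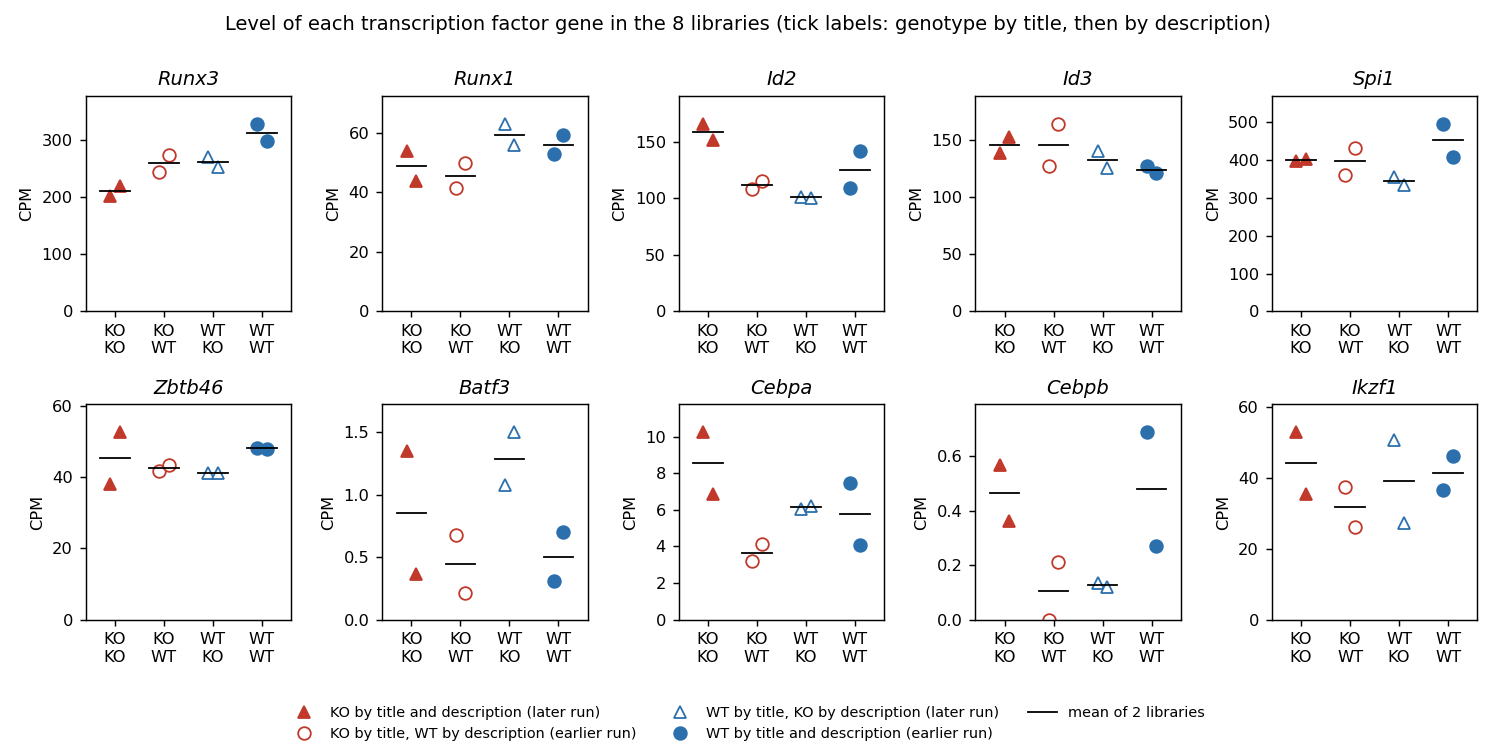
CPM of each of the 10 genes in each library, grouped by genotype in the title (upper tick label) and in the description (lower tick label), with circles for the earlier and triangles for the later code run, filled where both codes give the same genotype, and a line at the mean of each pair. Runx3 is lowest in the undisputed KO pair (202 and 219 CPM) and highest in the undisputed WT pair (298 and 328 CPM), while the Id2 level is highest in the undisputed KO pair (152 and 166 CPM).

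Id2 (ENSMUSG00000020644, chromosome 12, 25093799 to 25097140, minus strand) encodes the E protein inhibitor without which mice lack Langerhans cells. Its level was 166 CPM in RMN038 and 152 CPM in RMN039 (KO), against 109 CPM in RMN030 and 142 CPM in RMN031 (WT). The disputed libraries were close to each other, at 109 CPM in RMN032 and 115 CPM in RMN033 (titled KO) and at 101 CPM in both RMN036 and RMN037 (titled WT). The undisputed KO libraries were the 2 highest of the 8. In the undisputed libraries Id2 averaged 159 ± 9.79 CPM in KO and 125.5 ± 22.9 CPM in WT (SD, n = 2 each). Its log2 fold change there was 0.39 (SE 0.16, unadjusted p 0.037, edgeR adjusted p 0.409). With each undisputed library left out in turn, the log2 fold change ran from 0.23 to 0.56. The lowest value was without RMN030 and the highest without RMN031, a fit with RMN030 as the only WT library.

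By title the log2 fold change of Id2 was 0.26 (SE 0.16, edgeR adjusted p 0.998), and by description it was 0.17 (SE 0.17, edgeR adjusted p 0.753). The title contrast had opposite signs in the code runs: KO minus WT was -0.20 (SE 0.16) in the earlier codes and 0.68 (SE 0.10) in the later codes, where the edgeR adjusted p was 0.391. The difference between these contrasts was 0.88 on the log2 scale (SE 0.19, unadjusted p 0.000719), with an edgeR adjusted p of 0.199 over all genes, and 0.0478% of all genes were called in that test. Id2 was thus high in RMN038 and RMN039 against RMN036 and RMN037 of the same code run, with no such order in the earlier codes. The blood gene list was highest in RMN038 and RMN039, at 1272 to 1355 CPM, and between 122 and 861 CPM in the other 6 libraries. Its part in the Id2 level was not tested.

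Id3 (ENSMUSG00000007872, chromosome 4, 136143497 to 136145755, plus strand), the related inhibitor, was at 139 CPM in RMN038 and 152 CPM in RMN039 (KO), and at 127 CPM in RMN030 and 121 CPM in RMN031 (WT). It was at 127 CPM in RMN032 and 164 CPM in RMN033 (titled KO), and at 139.9 CPM in RMN036 and 126 CPM in RMN037 (titled WT). The undisputed groups did not overlap, while both readings of all 8 libraries did. Its log2 fold change was 0.27 (SE 0.15, edgeR adjusted p 0.553) in the undisputed libraries, 0.17 (SE 0.11, edgeR adjusted p 0.998) by title and 0.09 (SE 0.11, edgeR adjusted p 0.830) by description. Per length, Id2 was below Id3 in every library. The ratio of Id2 to Id3 was 0.879 in RMN038 and 0.734 in RMN039 (KO), against 0.631 in RMN030 and 0.862 in RMN031 (WT), and it was 0.518 to 0.627 in the 4 disputed libraries.

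**Figure D3:**
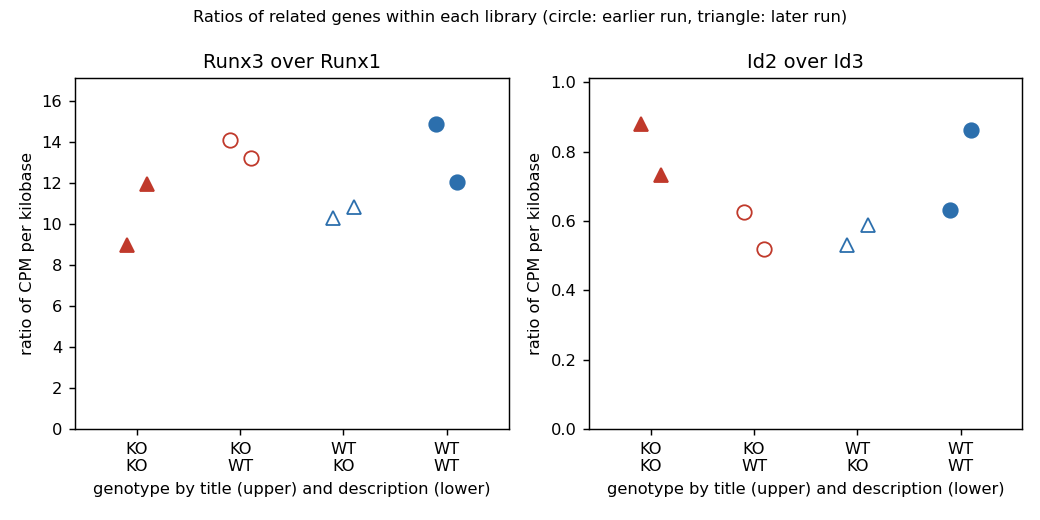
Ratio of CPM per kilobase of Runx3 to Runx1 (left) and of Id2 to Id3 (right) in each library, grouped by genotype in the title and in the description, with circles for the earlier and triangles for the later code run. The Runx3 to Runx1 ratio is 12.1 to 14.9 in the earlier codes and 9.01 to 12.0 in the later codes, and the Id2 to Id3 ratio stays below 1 in every library.

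Spi1 (ENSMUSG00000002111, chromosome 2, 91082390 to 91115756, plus strand) encodes PU.1, the ETS factor of myeloid and dendritic cells. It was at 398 CPM in RMN038 and 403 CPM in RMN039 (KO), 361 CPM in RMN032 and 433 CPM in RMN033 (titled KO), 355 CPM in RMN036 and 334 CPM in RMN037 (titled WT), and 495 CPM in RMN030 and 409 CPM in RMN031 (WT). By title the means were nearly equal, at 399 ± 29.4 CPM in KO and 398 ± 71.7 CPM in WT (SD, n = 4 each). The log2 fold change was -0.0034 (SE 0.13, edgeR adjusted p 0.998), with a sign that turned under several alternatives. In the undisputed libraries it was -0.13 (SE 0.14, edgeR adjusted p 0.820) and by description -0.15 (SE 0.11, edgeR adjusted p 0.666). The WT library RMN030 had the highest level, and without it the undisputed value was 0.03.

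Zbtb46 (ENSMUSG00000027583, chromosome 2, 181387762 to 181459426, minus strand), the zinc finger gene that marks conventional dendritic cells, varied little. It was at 38.1 CPM in RMN038 and 52.7 CPM in RMN039 (KO), which were the lowest and the highest values of all, against 48.3 CPM in RMN030 and 48.1 CPM in RMN031 (WT). The 4 disputed libraries lay at 41.1 to 43.5 CPM. Its log2 fold changes ran from -0.04 to -0.02 over the 4 comparisons, with SE of 0.14 to 0.22 and edgeR adjusted p values of 0.965 to 0.998.

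Batf3 (ENSMUSG00000026630, chromosome 1, 191097847 to 191108945, plus strand), the AP-1 family factor of cross-presenting dendritic cells, was near the detection limit. It had 19 counts in RMN038 and 4 in RMN039 (KO), 11 in RMN032 and 4 in RMN033 (titled KO), 16 in RMN036 and 25 in RMN037 (titled WT), and 4 in RMN030 and 13 in RMN031 (WT). By description it averaged 1.07 ± 0.504 CPM in KO and 0.473 ± 0.251 CPM in WT (SD, n = 4 each), and its log2 fold change was 1.22 (SE 0.68, edgeR adjusted p 0.507). By title the value was -0.47 (SE 0.74, edgeR adjusted p 0.998), of the opposite sign. Defining markers of the dendritic cells that need Batf3 were also low: Xcr1 was at 0 to 0.264 CPM and Clec9a at 0 to 1.14 CPM over the 8 libraries. CD103, encoded by Itgae and excluded by the sort, was at 4.34 to 13.7 CPM. Xcr1, Clec9a and Itgae belong to a list of 8 markers of dermal conventional dendritic cells. The whole list was not low, with a sum of 305 to 451 CPM over the 8 libraries. Most of that sum was Sirpa, at 159 to 242 CPM, and Mgl2, at 104 to 165 CPM. The part of such cells in the Batf3 level was not tested.

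Cebpa (ENSMUSG00000034957, chromosome 7, 35119293 to 35121928, plus strand), a pioneer factor of myeloid commitment, was at 10.2 CPM in RMN038 and 6.88 CPM in RMN039 (KO), and at 7.48 CPM in RMN030 and 4.09 CPM in RMN031 (WT). It was at 3.19 CPM in RMN032 and 4.11 CPM in RMN033 (titled KO) and at 6.05 CPM in RMN036 and 6.23 CPM in RMN037 (titled WT). In 3 of the 4 libraries of the earlier codes Cebpa was below all libraries of the later codes, with RMN030 as the exception. By description it averaged 7.35 ± 1.95 CPM in KO and 4.72 ± 1.89 CPM in WT (SD, n = 4 each), and its log2 fold change was 0.68 (SE 0.32, unadjusted p 0.0535, edgeR adjusted p 0.408). By title it was 0.03 (SE 0.38, edgeR adjusted p 0.998). The list of monocyte and macrophage markers summed to 516 to 569.6 CPM in the later codes and to 364 to 466 CPM in the earlier codes. Most of that sum was Adgre1, which overlapped, at 315 to 414 CPM in the later and 309 to 372 CPM in the earlier codes. Lyz2 did not overlap, at 114 to 158 CPM in the later and 46.1 to 78.7 CPM in the earlier codes. The part of these markers in the Cebpa level was not tested.

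Cebpb (ENSMUSG00000056501, chromosome 2, 167688915 to 167690418, plus strand), the C/EBP factor of activated macrophages, had 0 to 9 counts per library and entered none of the fits. Its counts were 8 in RMN038 and 4 in RMN039 (KO), 0 in RMN032 and 4 in RMN033 (titled KO), 2 in both RMN036 and RMN037 (titled WT), and 9 in RMN030 and 5 in RMN031 (WT). The count of 0 in RMN032 allows up to 0.184 CPM, from 3 counts. An exon stretch of 312 bases, 20.7% of its union exon length, is shared with the oppositely oriented Tmem189, which had 3280 counts over the 8 libraries, and the strand setting of the counting was not given in the sources used here. Antisense genes share 1.93% of the exon length of Cebpa and 0.882% of that of Runx1, and reads of such pairs cannot be told apart without strand.

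Ikzf1 (ENSMUSG00000018654, chromosome 11, 11685003 to 11772926, plus strand) encodes Ikaros. Its level was 52.8 CPM in RMN038 and 35.4 CPM in RMN039 (KO), 37.3 CPM in RMN032 and 26.2 CPM in RMN033 (titled KO), 50.8 CPM in RMN036 and 27.2 CPM in RMN037 (titled WT), and 36.5 CPM in RMN030 and 46.2 CPM in RMN031 (WT). Among the 7 members with a mean of at least 10 CPM it had the widest spread, a log2 range of 1.00. Of the like-labelled pairs, RMN036 and RMN037 were the farthest apart and RMN030 and RMN031 the closest. Its log2 fold change was 0.14 (SE 0.24, edgeR adjusted p 0.902) in the undisputed libraries, -0.08 (SE 0.24, edgeR adjusted p 0.998) by title and 0.23 (SE 0.22, edgeR adjusted p 0.756) by description.

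None of the members passed the threshold in any of the 4 edgeR fits. Over the undisputed libraries the test called 0 of the 8 members it covered, against 0.794% of all tested genes. By title it was 0 of 9 members against 0% of all tested genes, with and without the code run as a term, and by description 0 of 9 against 2.02%. At an unadjusted p under 0.05, edgeR gave 2 members in the undisputed libraries (Runx3 and Id2), 2 by title (Runx3 and Runx1), the same 2 by title with the code run, and 0 by description. The shares of all tested genes at that level were 11.3%, 4.59%, 6.15% and 12.6%. In the undisputed libraries DESeq2 called 1 member, Runx3, among 305 genes in all, where edgeR called 117 genes. It called 0 members in the other comparisons.

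In the undisputed libraries, the CPM of KO and WT did not overlap for 4 of 8 tested members (Runx3, Id2, Id3 and Spi1), a share near the 42.1% of all tested genes. No member was free of overlap by title, against 2.94% of all tested genes, or by description, against 8.82%. The median log2 fold change of the tested members was 0.05 in the undisputed libraries, -0.02 by title, -0.09 by title with the code run and 0.13 by description. The same medians over all tested genes were -0.0016, -0.0033, -0.0050 and -0.0085. Of the 8 members tested in all 4 fits, Id2 and Id3 had a positive log2 fold change in each, and Runx3 and Zbtb46 a negative one; these fits share libraries.

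**Figure D4:**
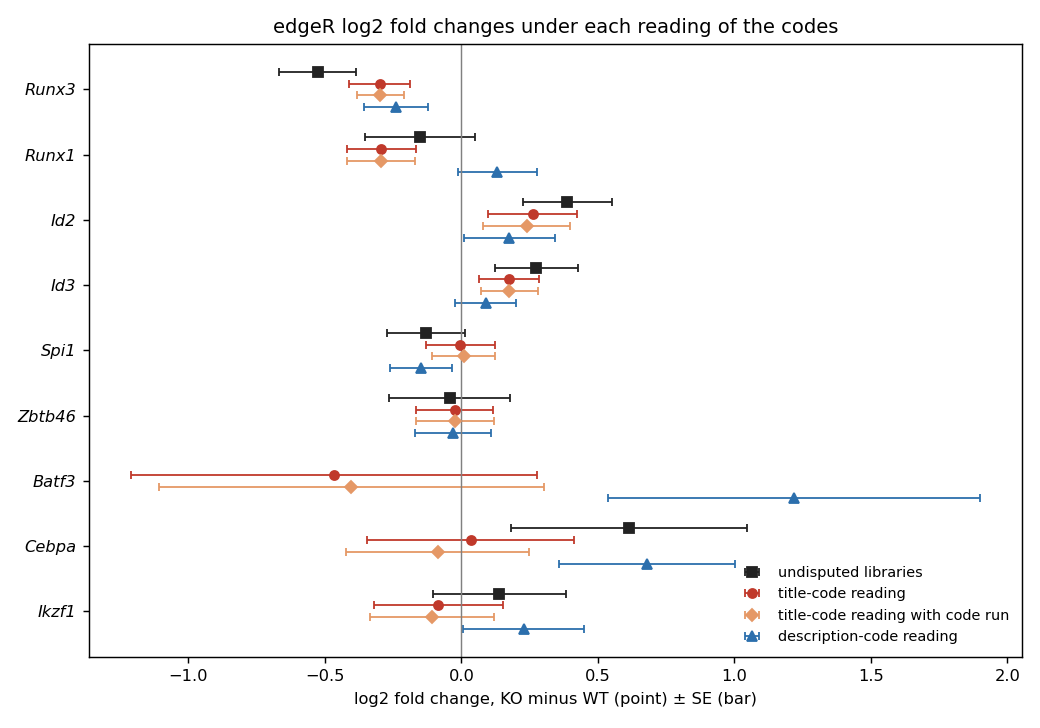
edgeR log2 fold change (point, KO minus WT) with its SE (bar) for the 9 members that were tested, in the 4 undisputed libraries, by title codes, by title codes with the code run as a term, and by description codes. Runx3 lies left of 0 in each (-0.53 to -0.24), Id2 and Id3 lie right of 0 in each, and Runx1, Spi1, Batf3, Cebpa and Ikzf1 lie on different sides of 0 by title with the code run and by description.

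Genes that work with the members were read from 8 companion lists. Of 7 RUNX partners and relatives, 5 were tested and 0 passed in any fit; the smallest p values belonged to the corepressor genes Cbfa2t2 (log2 fold change -0.20, SE 0.13, edgeR adjusted p 0.615, by description) and Cbfa2t3 (0.36, SE 0.27, edgeR adjusted p 0.644, by description). Of 5 ID relatives and E proteins, 4 were tested and 0 passed. Tcf3, which encodes the E proteins E12 and E47, had a log2 fold change of -0.49 (SE 0.16, edgeR adjusted p 0.668) by title with the code run. By description the Tcf3 value had the opposite sign, at 0.48 (SE 0.20, edgeR adjusted p 0.316). In the undisputed libraries it was 0.06 (SE 0.21, edgeR adjusted p 0.958). Its level was 23.8 and 23.1 CPM in RMN032 and RMN033, and 37.2 to 47.0 CPM in the other 6 libraries. Id1 had -0.45 (SE 0.17, edgeR adjusted p 0.239) by description.

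Of 10 ETS factors near PU.1, 7 were tested, and Ets2 passed, by description only among the 4 fits. Ets2 was at 178 to 213 CPM in the later codes (KO by description) and at 263 to 351 CPM in the earlier codes (WT by description), 1.51-fold lower in the later codes (log2 fold change -0.59, SE 0.10, edgeR adjusted p 0.00743). The fibroblast list (110 to 176 CPM in the later and 35.6 to 49.1 CPM in the earlier codes), the blood list (580 to 1355 and 122 to 226 CPM) and the mitochondrial share of counts (3.76 to 4.03% and 1.02 to 1.87%) separate the same libraries, and their part in the Ets2 difference was not tested. The order of the libraries followed the code run: RMN032 and RMN033, titled KO, had the 2 highest levels, and by title the log2 fold change was 0.23 (edgeR adjusted p 0.998). Of 7 BATF relatives and AP-1 and IRF partners, 5 were tested, and Junb, an AP-1 subunit, passed by description. It was at 1487 to 1516 CPM in the later codes and at 1814 to 2406 CPM in the earlier codes, 1.38-fold lower in the later codes (log2 fold change -0.47, SE 0.092, edgeR adjusted p 0.0196), along the same split as the mitochondrial share and the fibroblast and blood lists, whose part was not tested. Without RMN030 and RMN031 its edgeR adjusted p was 0.0736, and it also missed the threshold without RMN033 (0.0639), RMN036 (0.0659), RMN037 (0.0572), RMN038 (0.0601) or RMN039 (0.0579).

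Of 22 other dendritic cell factors, 21 were tested, and Ahr passed in the undisputed libraries and by description. Ahr encodes the aryl hydrocarbon receptor, a ligand-activated factor of skin immune cells. Its level was 198 CPM in RMN038 and 228 CPM in RMN039 (KO) against 91.6 CPM in RMN030 and 131.6 CPM in RMN031 (WT), 1.98-fold higher in KO (log2 fold change 0.98, SE 0.18, edgeR adjusted p 0.0332). It was 87.9 CPM in RMN032 and 69.0 CPM in RMN033 (titled KO) and 165 CPM in RMN036 and 164 CPM in RMN037 (titled WT), so that every library of the later codes was above every library of the earlier codes. By description it was 2.05-fold higher in KO (log2 fold change 1.03, SE 0.18, edgeR adjusted p 0.00757), and by title with the code run its log2 fold change was -0.07 (SE 0.18). The mitochondrial share of counts (3.76 to 4.03% in the later and 1.02 to 1.87% in the earlier codes) and the fibroblast and blood lists split the libraries in the same way, and their part in the Ahr difference was not tested. The median log2 fold change of the 21 genes was -0.11 in the undisputed libraries (7 positive and 14 negative) and -0.24 by description (6 positive and 15 negative), but 0.09 by title (14 positive and 7 negative) and 0.04 by title with the code run (13 positive and 8 negative), so that its sign followed the reading of the codes. The medians of the other 7 lists ran from -0.64 (Ikaros relatives) to 0.24 (C/EBP relatives) in the undisputed libraries, from -0.10 (ID relatives and E proteins) to 0.14 (C/EBP relatives) by title, and from -0.22 (Ikaros relatives) to 0.18 (ID relatives and E proteins) by description.

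Of 13 genes known to be controlled by members or to act on them in myeloid or dendritic cells, 10 were tested, and Tgfbr2, a TGF-beta receptor subunit, passed by description. It was at 145 to 175 CPM in the later codes and at 108 to 139.99 CPM in the earlier codes, 1.41-fold higher in the later codes (log2 fold change 0.50, SE 0.10, edgeR adjusted p 0.0258). The code runs also differed in mitochondrial share (3.76 to 4.03% in the later and 1.02 to 1.87% in the earlier codes) and in the fibroblast list (110 to 176 and 35.6 to 49.1 CPM), whose part was not tested. Without RMN030 and RMN031 its edgeR adjusted p was 0.170, and it also missed the threshold without RMN030 (0.0618), RMN031 (0.0725), RMN032 (0.0649), RMN036 (0.0815), RMN037 (0.0666) or RMN039 (0.0797). By title its log2 fold change was 0.03 (edgeR adjusted p 0.998).

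No gene passed in any fit among 6 C/EBP relatives (5 tested) or 5 Ikaros relatives (4 tested in the undisputed libraries and 3 in the other fits). The smallest p values belonged to Trib1, a pseudokinase that promotes C/EBP-alpha degradation (0.36, SE 0.16, edgeR adjusted p 0.428, undisputed libraries), and Cebpg (0.26, SE 0.14, edgeR adjusted p 0.998, by title). Among the Ikaros relatives they belonged to Ikzf3 and Ikzf4. Ikzf3, the lymphoid relative Aiolos, was at 0 in RMN038 and 0.724 CPM in RMN039 (KO), against 0.840 CPM in RMN030 and 4.63 CPM in RMN031 (WT), and it was at 0 in the disputed libraries. Its edgeR adjusted p in the undisputed libraries was 0.429, and the WT libraries were those with the T cell genes given above. Ikzf4 had -0.68 (SE 0.34, edgeR adjusted p 0.448) by description.

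Genes most like Runx3 over the 8 libraries were found by the root mean square difference of mean-centred log2(CPM + 0.5). They were Themis2 (0.0616 log2 units), Cmtm3 (0.0653), AU040320 (0.0677), Gcn1l1 (0.0684) and Ssbp4 (0.0700). Themis2, for example, was at 313 CPM in RMN038 and 345 CPM in RMN039 (KO) against 477 CPM in RMN030 and 426 CPM in RMN031 (WT), and at 376 to 441 CPM in the disputed libraries. With a pseudocount of 2, 4 of these 5 genes were named again. Among the genes most like Ikzf1, the member with the widest log2 range, were Parp8 (0.168), Wbp4 (0.172), Ascc3 (0.186) and Zfp800 (0.187), each farther from it than the 5 genes named for Runx3 were from Runx3. The libraries differ in code run and in depth, whose part in these likenesses was not tested, and no test was made on them.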

How the data were processed

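Bulk RNA-seq libraries of sorted epidermal Langerhans cells were analysed, 4 labelled KO and 4 labelled WT. The deposited table gives raw counts, 1 row per Ensembl gene, for 25247 genes. Per the submitters' processing notes, STAR 2.5.2b, featureCounts 1.5.0 and build GRCm38 (mm10) were used by the authors. Annotation release, strand setting and handling of mates are not given in the sources used here. Among counts of 1 to 20, 60.1% were even, so mates may have been counted separately, and the limit given for a count of 0 covers counting error only. Per the labels' protocols, the sort took live CD45+ cells with MHCII, CD24 and EpCAM and without Ly6G or CD103.

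Symbols were matched by Ensembl identifier (25080 matched, 167 did not). CPM is the count over the column total. Coordinates and union exon lengths came from a GENCODE annotation of GRCm38. Promoter windows came from RefSeq (GRCm38.p6), matched for 9 of the 10 members, all but Spi1. Both strands were searched for 6 motifs, overlaps allowed.

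Tests used edgeR 4.0.16 in R 4.3.3 (filterByExpr, TMM, robust quasi-likelihood fit, two-sided F-test, KO minus WT), with Benjamini-Hochberg adjustment over all tested genes (14727 in the undisputed libraries, 14630 otherwise) and a threshold of 0.05. SE were derived from the F statistic. Separate animals are not named in the labels, so the p-values rest on a spread between libraries that may be technical. These fits were tried first on simulated data with known changes. The tests were repeated with DESeq2 1.42.0, with voom and quality weights (limma 3.58.1), with RLE size factors, without a filter or with one at 1 CPM, leaving out each library, with a block for the replicate number, within each code run and without RMN030 and RMN031. Where that leaves an undisputed group with 1 library, this library is taken to vary as the other group does.

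The members, gene lists and tests were chosen with earlier results of these data known. All 10 members are named, with up to 4 genes per companion list and fit past the threshold or, where none passed, the 2 with the smallest p, and 5 genes of like pattern for Runx3 and for the member of widest range, of which 1 is not reported here.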

Additional observations from a re-analysis of the deposited data

Results flagged for a closer look

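Id3 in RMN033 stood apart from the other 3 libraries that are WT by description, at 163.7 CPM against 120.8 to 127.3 CPM. RMN033 is KO by title. In all, 40 groups of 4 libraries were examined, 10 genes in 4 groups, and chance gives such a library in about 1 group of 20.

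Cebpb had opposite differences in the code runs by title: its mean in KO minus its mean in WT was -0.373 CPM in the earlier codes and 0.338 CPM in the later codes, with every library on its side. This difference was not tested, and it rests on 0 to 9 counts per library.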

How the results depend on the processing

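Of 483 refitted log2 fold changes of members, 429 kept their direction and their side of the threshold, 50 had the other direction (0 of them past the threshold), and 4 passed only in the alternative, all in the undisputed libraries: Runx3 with no filter, with DESeq2 and without RMN031, and Id2 without RMN031. Members called in the undisputed libraries (0) were 1 with no filter, 1 with DESeq2 and 0 to 2 with each library left out. Genes called there (117) were 440 with no filter, 305 with DESeq2 and 263 to 629 with each library left out, the highest without RMN031. Genes called by title (0) were 1 with no filter, 19 with DESeq2 and 57 within the earlier code run; with the code run (0) they were 139 with no filter, 46 with DESeq2, 3 with limma voom and 0 to 4 with each library left out. Genes called by description (296) were 660 with DESeq2, 174 with the replicate block and 140 to 219 with each library left out, the lowest without RMN033. The cause was not tested.

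Other directions by title were, for Spi1, 0.000148 with RLE size factors, 0.00018 with DESeq2, 0.031 with limma voom, 0.012 with the replicate block, 0.25 within the later code run and 0.20 without RMN030 and RMN031. For Cebpa they were -0.20 with limma voom, -0.067 with the replicate block, -0.70 within the earlier code run and -0.011 without RMN030 and RMN031. Within the earlier code run Id2 was at -0.20, and within the later code run Zbtb46 was at 0.17 and Ikzf1 at 0.21. Without RMN030 and RMN031, Zbtb46 was at 0.091 by title, 0.17 by title with the code run and 0.077 by description, Id3 was at -0.0066 by description, and with the code run Cebpa was at 0.51 and Ikzf1 at 0.21, in a fit whose contrast comes from the later code run alone. With the code run and limma voom Cebpa was at 0.055. With each library left out, the undisputed ranges were -0.29 to 0.030 for Spi1, -0.31 to 0.17 for Zbtb46 and -0.18 to 0.39 for Ikzf1. By title they were -0.085 to 0.13 for Spi1, -0.14 to 0.029 for Zbtb46, -0.35 to 0.25 for Cebpa and -0.30 to 0.063 for Ikzf1. With the code run they were -0.067 to 0.13 for Spi1, -0.16 to 0.031 for Zbtb46, -0.33 to 0.24 for Cebpa and -0.33 to 0.046 for Ikzf1, and by description -0.15 to 0.022 for Zbtb46.

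The replicate block called 0 genes by title and no member in either reading, and it could not be used in the undisputed libraries, which share no number. The deviations of same-numbered libraries from their group means correlated at 0.052 to 0.101 by title and -0.0068 to 0.030 by description. Not every library correlated best with its own number. By title the correlations were positive within a code run and negative across code runs. They therefore cannot settle whether same-numbered libraries are pairs. Per length of the longest transcript, 8 of 10 members kept their place in the order, and Runx1 and Ikzf1 exchanged theirs. Batf3 and Cebpb, with 0 to 25 counts per library, are the members whose differences the depth cannot show.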
